A study of Mus musculus with 48 samples.

Results

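The genes described here are the 10 subunits of the mammalian SWI/SNF (BAF) chromatin remodelling complex that are known to be exchanged as stem cells become neurons: Smarca4, Smarca2, Actl6a, Actl6b, Phf10, Dpf1, Dpf2, Dpf3, Ss18 and Ss18l1. They were chosen by gene symbol, each matched 1 entry of the deposited count table, and together they are 10 of its 36935 genes. RNA was measured in mouse E14 embryonic stem cells (E14 wildtype) and in 3 knockout lines made from them, which the labels give as KAT6A-/- KO, KAT6B-/- KO and KAT6A-/-; KAT6B-/- dKO and which are called KAT6A_KO, KAT6B_KO and KAT6AB_KO here. KAT6A and KAT6B are related histone acetyltransferases. Each line was taken as untreated stem cells grown with LIF (day 0), as embryoid bodies without LIF (day 2), as embryoid bodies given 10 µM all-trans retinoic acid (first added at day 4, sampled at day 6), and as dissociated cells plated at day 8 in neuronal medium (day 15). There were 3 libraries for each of the 16 groups, 48 in all, from 3 independent differentiation experiments. Whether a line is a single clone is not given in the sources used here.

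BAF complexes use the energy of ATP to slide or evict nucleosomes, and several of their positions can be filled by either of a pair of paralogs. In dividing stem and neural progenitor cells the complex carries ACTL6A (BAF53A), PHF10 (BAF45A) or DPF2 (BAF45D), and SS18. In neurons these are replaced by ACTL6B (BAF53B), DPF1 (BAF45B) or DPF3 (BAF45C), and SS18L1 (CREST), while the catalytic position is held by SMARCA4 (BRG1) or SMARCA2 (BRM). The repressor REST, the microRNAs miR-9-3p (also written miR-9*) and miR-124, and the 3′ UTR of Actl6a are known parts of the circuit that carries out the actin-like exchange in neurons.

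Levels are counts per 1000000 counts (CPM) after TMM scaling over all 48 libraries, whose totals ran from 22499375 to 72229461 counts. The labelled course was checked against marker genes. In E14 the summed level of 8 pluripotency markers was 3192 to 4054 CPM at day 0 and 206.2 to 368.0 CPM at day 15, and that of 10 neuron markers was 380.0 to 417.6 CPM at day 0 and 1739 to 3102 CPM at day 15. Mesenchyme and smooth muscle markers were present too, at 1923 to 4558 CPM for 6 genes, so the day 15 E14 cultures were not neurons alone. Kat6a itself was at 119 to 214 CPM in E14 and 61 to 128 CPM in KAT6A_KO, and Kat6b was at 84.8 to 376 CPM in E14 and 73.3 to 218 CPM in KAT6B_KO. These are counts over the whole gene, and since the deleted part is not given in the sources used here they do not check the loss of the protein.

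The sequences shown first belong to the actin-like pair, whose levels moved farthest apart. Each promoter stretch is the 250 bases before the RefSeq gene start on the plus strand of GRCm38.p6, at chr5:137553296-137553545 for Actl6b and chr3:32708296-32708545 for Actl6a. Capitals mark CCAAT boxes (CCAAT, either strand) and GC boxes (GGGCGG, either strand), 2 common promoter motifs.
Actl6b promoter: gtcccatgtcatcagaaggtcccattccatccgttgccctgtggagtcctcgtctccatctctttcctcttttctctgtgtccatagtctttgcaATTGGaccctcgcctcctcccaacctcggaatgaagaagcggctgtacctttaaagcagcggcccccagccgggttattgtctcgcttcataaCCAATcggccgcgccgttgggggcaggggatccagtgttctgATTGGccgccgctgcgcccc
Actl6a promoter: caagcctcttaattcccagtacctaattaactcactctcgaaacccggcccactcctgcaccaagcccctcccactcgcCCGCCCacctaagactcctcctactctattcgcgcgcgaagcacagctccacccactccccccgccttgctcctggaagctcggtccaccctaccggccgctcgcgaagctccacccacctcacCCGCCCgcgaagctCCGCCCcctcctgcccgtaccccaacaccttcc
The Actl6b stretch held 3 CCAAT boxes and no GC box, and the Actl6a stretch held 3 GC boxes and no CCAAT box. In the 300-base windows that also take in the first 50 bases of the gene, Actl6b had 2 GC boxes beside its 3 CCAAT boxes and Actl6a had the same 3 GC boxes. Of windows of that length, 37.4% of 32851 RefSeq promoters had a CCAAT box and 35.7% had a GC box.

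The next sequence is a match to the parts of RE1, the element that REST binds, inside the first exon of Actl6b. It was searched as its parts TCAGCACC and GGACAG in that order, 0 to 12 bases apart, on either strand. The match lies at chr5:137553568-137553590 (GRCm38.p6, plus strand as printed, so that the element itself reads on the minus strand), at bases 23 to 45 after the gene start, and capitals mark its parts.
Actl6b RE1 match: CTGTCCggccgcctcGGTGCTGA
Of the 32851 promoters, 23 (0.07%) held both parts in this order, 0 to 12 bases apart. In Actl6b 9 bases lay between them, and the share with that spacing alone was not counted. TCAGCACC alone was in 1.65% of promoters and GGACAG alone in 22.2%. Among the 9 members searched, Actl6b was the one with TCAGCACC, Dpf2 had GGACAG alone, and Ss18 was not searched. A match is a description of letters, and binding was not measured.

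The last pair of sequences joins miR-9-3p to the 3′ UTR of Actl6a. The mature microRNA is from RefSeq (GRCm38.p6, 3 loci, of which the copy at chr7:79505318-79505339 is on the plus strand), with its seed, bases 2 to 8, in capitals. The site is in exon 14 of Actl6a at chr3:32726630-32726656 (GRCm38, plus strand), with the 7 bases that pair with the seed in capitals.
miR-9-3p: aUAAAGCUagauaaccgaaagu
Actl6a 3′ UTR site: caacgtctgtAGCTTTAgtacactcag
The match begins at base 38 of a 3′ UTR of 371 bases, and 2.58% of the 893 genes with a 3′ UTR within 10% of that length held one. Smarca2 also had 1 match in a 3′ UTR of 952 bases, where 7.45% of 1355 genes of like length had one, and the other 8 members had none.

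In E14, 8 of the 10 members changed between day 0 and day 15 by edgeR's quasi-likelihood test (Benjamini-Hochberg adjusted p under 0.05 over all genes), against 69.7% of all 20503 genes tested. The 4 that rose were Actl6b, Smarca2, Ss18l1 and Dpf3, all grouped here as neuronal paralogs, where 36.5% of all genes rose. For Smarca2 the name marks the grouping only, since either ATPase can hold the catalytic position. The 4 that fell were the stem and progenitor paralogs Actl6a, Ss18, Dpf2 and Phf10, where 33.2% of all genes fell. Smarca4 and Dpf1 did not pass the test. A share of 8 in 10 is close to the share of all genes, so the count says little by itself, and the account that follows is of sizes, timing and levels. These are bulk cultures, in which fewer cells of a type and less RNA per cell cannot be told apart.

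**Figure D1:**
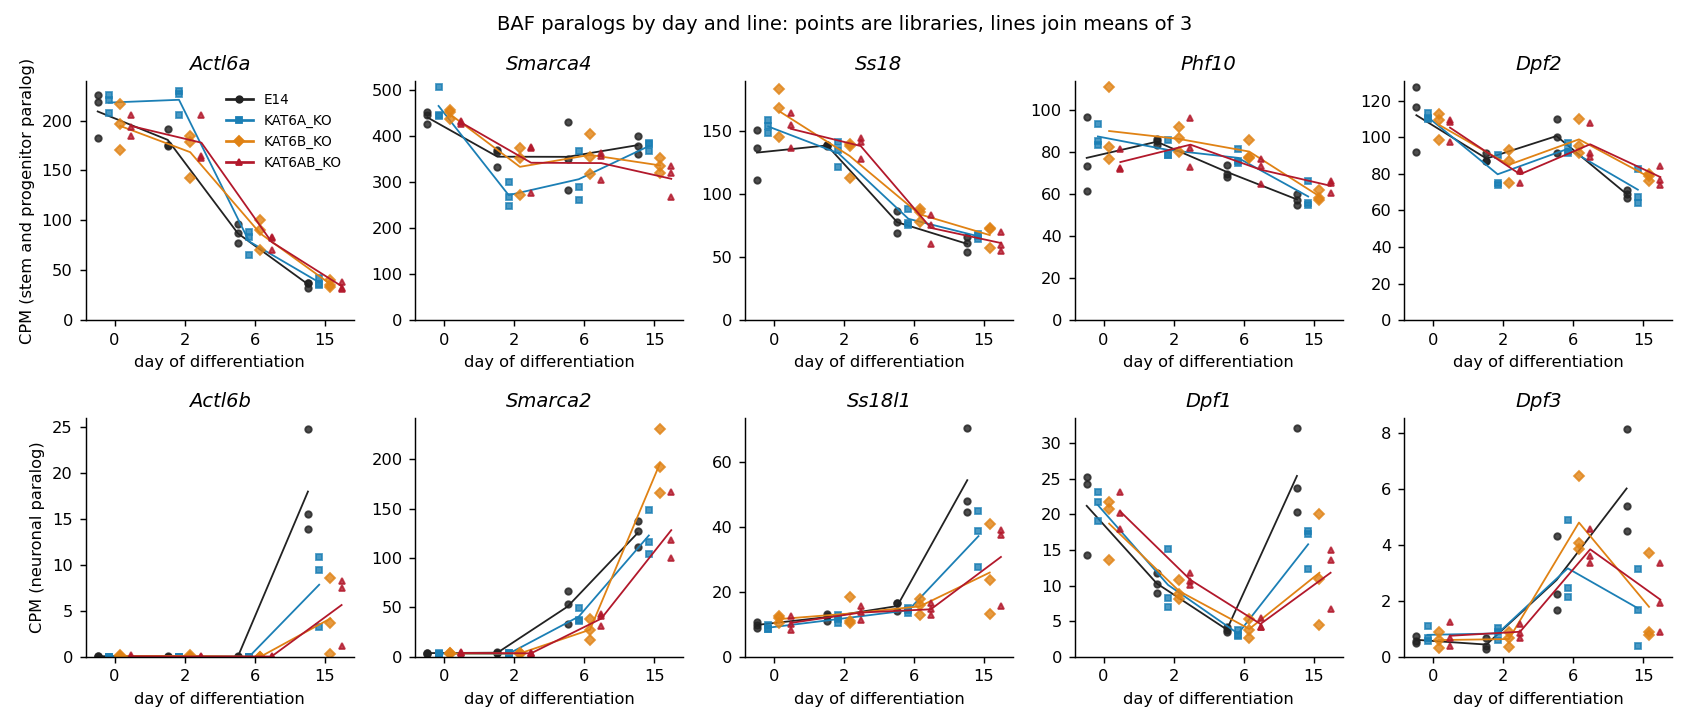
CPM (y axes from 0, a separate scale for each gene) at days 0, 2, 6 and 15 (evenly spaced steps, not to scale in time) for the 5 stem and progenitor paralogs (upper panels) and the 5 neuronal paralogs (lower panels); each point is a library and lines join the means of 3. Actl6a falls to 31.6 to 42.2 CPM in all 12 day 15 libraries, while Actl6b stays near 0 until day 15 and is then highest in the 3 E14 libraries.

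In the catalytic pair, Smarca2 rose and Smarca4 stayed high. Smarca4, which encodes the ATPase of stem cell BAF, was at 451.2, 424.9 and 444.9 CPM in the 3 E14 libraries at day 0 and at 400.5, 360.4 and 379.0 CPM at day 15. All 3 day 15 libraries were below all 3 day 0 libraries, but the change was small and did not pass the test (log2 fold change −0.18, SE 0.13, edgeR adjusted p = 0.236). Its day 6 value against day 0 was −0.30 (edgeR adjusted p = 0.0796), and with the replicate number as a block it was −0.31 and called (adjusted p = 0.0432). Smarca2, which encodes the alternative ATPase, was at 3.75, 3.17 and 4.29 CPM at day 0, 66.6, 32.8 and 53.0 CPM at day 6 and 126.9, 111.3 and 137.6 CPM at day 15. The 3 days did not overlap. The log2 fold change from day 0 was 3.78 (SE 0.24, edgeR adjusted p = 1.43e-07) at day 6 and 5.10 (SE 0.25, edgeR adjusted p = 4.04e-09) at day 15. Smarca2 had thus risen by the retinoic acid stage, when the 10 neuron markers summed to 59.8 to 75.5 CPM, below their level in stem cells. Of those 10, 5 were lower and 1 was higher than at day 0 (Dcx, named after its values were seen). Of 7 neural progenitor markers, 4 had risen, Sox2 had fallen (log2 −1.99, edgeR adjusted p = 8.78e-07) and the rest did not pass. All 6 endoderm markers had risen. The part of these cell types in the Smarca2 rise was not tested. Mean CPM per kilobase of exon sets genes side by side only roughly, since it depends on the exon length counted for each gene. On this scale Smarca4 went from 68.0 to 58.7 and Smarca2 from 0.262 to 8.78. Smarca4 remained the higher of the 2 at day 15, by CPM too.

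The actin-like pair showed the widest exchange. Actl6a, which encodes the actin-related subunit of dividing cells, was at 225.6, 182.8 and 218.9 CPM in E14 at day 0, at 86.9 ± 9.29 CPM (SD, n = 3) at day 6 and at 32.6, 37.5 and 37.6 CPM at day 15. The decline was stepwise and the 3 days did not overlap. It amounted to −1.25 (SE 0.13, edgeR adjusted p = 4.85e-06) on the log2 scale at day 6 and −2.51 (SE 0.13, edgeR adjusted p = 4.46e-09) at day 15. Actl6b, which encodes the neuronal actin-related subunit, had 2, 0 and 3 counts in E14 at day 0, 1, 3 and 0 at day 2, 1, 0 and 1 at day 6, and 1032, 823 and 892 at day 15. Over all 4 lines no library before day 15 had more than 11 counts, so the gene was at background in the samples taken up to day 6. Its day 15 levels in E14 were 24.8, 13.9 and 15.5 CPM. The fitted log2 fold change was 8.25 (SE 0.63, edgeR adjusted p = 7.4e-08), a size that depends on the prior count because day 0 was almost empty. Per kilobase of exon, Actl6a was at 53.8 at day 0 and 9.24 at day 15 and Actl6b at 0.0147 and 4.23, so Actl6a was still the higher at day 15.

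By CPM the 2 genes of the SS18 pair overlapped at day 15 in E14, and they crossed only per kilobase of exon. Ss18, which encodes a scaffold subunit of stem and progenitor BAF, was at 111.2, 136.7 and 150.4 CPM in E14 at day 0 and at 54.2, 61.0 and 65.9 CPM at day 15, with no overlap. The log2 fold change was −0.76 (SE 0.13, edgeR adjusted p = 0.000278) at day 6 and −1.10 (SE 0.13, edgeR adjusted p = 3.77e-06) at day 15. Ss18l1, which encodes the calcium-responsive coactivator CREST, was at 9.74, 9.0 and 10.6 CPM at day 0 and 70.4, 44.5 and 47.8 CPM at day 15. It had risen by 0.69 (SE 0.18, edgeR adjusted p = 0.00582) on the log2 scale by day 6 and by 2.50 (SE 0.19, edgeR adjusted p = 5.56e-08) by day 15. The larger step was the later one, 1.81 (SE 0.18, edgeR adjusted p = 1.9e-06) between days 6 and 15. Mean levels per kilobase were 14.1 and 2.26 for Ss18 and Ss18l1 at day 0, and 6.41 and 12.5 at day 15. In E14 this was the one pair in which the neuronal paralog had the higher level per kilobase at day 15 when each is set against its own partner. That order rests on the exon lengths used.

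The PHD-finger subunits did not move as a block. Phf10 was at 73.5, 96.8 and 61.7 CPM in E14 at day 0 and 54.7, 57.4 and 60.3 CPM at day 15, and Dpf2 was at 127.5, 91.8 and 116.7 CPM and then 68.7, 70.9 and 67.0 CPM. Neither gene overlapped between the days. Dpf2 fell by 0.67 on the log2 scale (SE 0.13, edgeR adjusted p = 4e-04), and Phf10 fell by 0.40 (SE 0.14, edgeR adjusted p = 0.0212). The Phf10 call was lost when any of 3 single libraries was left out (day 0 replicate 2, day 15 replicate 1 or day 15 replicate 2), with an adjusted p of up to 0.116. Both genes stayed well expressed, at 11.7 and 10.6 CPM per kilobase at day 15.

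Dpf1 followed a course of its own. It was at 25.2, 14.3 and 24.2 CPM in undifferentiated E14 cells, 10.2, 8.94 and 11.7 CPM at day 2, 3.45, 3.83 and 4.18 CPM at day 6, and 32.1, 23.7 and 20.4 CPM at day 15. Stem cells and plated cells overlapped, with a trough between them. The fall from day 0 was −1.06 (SE 0.24, edgeR adjusted p = 0.00719) at day 2 and −2.46 (SE 0.25, edgeR adjusted p = 4.88e-06) at day 6, and the rise from day 6 to day 15 was 2.74 (SE 0.25, edgeR adjusted p = 8.75e-07). Against day 0 the day 15 change was 0.28 (edgeR adjusted p = 0.287). At day 2 Dpf1 was the one member that passed the test, where 21.6% of all genes did and 12.1% were lower. The sum of the neuron markers in E14 also dipped, from 380.0 to 417.6 CPM at day 0 through 178.0 to 198.1 at day 2 and 59.8 to 75.5 at day 6. Its 10 genes did not move as one, since at day 2 there were 3 lower, 2 higher and 5 that did not pass. Dpf3, the other neuronal PHD-finger subunit, was low throughout: 0.487, 0.577 and 0.76 CPM in E14 at day 0, 1.67, 2.24 and 4.33 CPM at day 6 and 8.17, 5.42 and 4.51 CPM at day 15. The 3 days did not overlap, and the rise from day 0 was 2.18 (SE 0.44, edgeR adjusted p = 0.000963) at day 6 and 3.32 (SE 0.44, edgeR adjusted p = 1.35e-05) at day 15.

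The steps of the E14 course differed in which members they moved. By day 6, 3 members had risen (Smarca2, Dpf3, Ss18l1) and 3 had fallen (Actl6a, Dpf1, Ss18) against day 0, where 50% of all genes changed, 25.8% upward and 24.2% downward. Between days 2 and 6, Smarca2 rose by 3.65 and Dpf3 by 2.66 on the log2 scale, and Actl6a, Dpf1 and Ss18 fell, where 41.7% of genes changed, 22.1% upward and 19.6% downward. Between days 6 and 15 all 5 neuronal paralogs rose, and Actl6a, Dpf2 and Ss18 fell, where 54.6% of genes changed, 27.3% in each direction. Thus Smarca2 and Dpf3 made their first rise in embryoid bodies, and Actl6b and Dpf1 theirs between days 6 and 15. Ss18l1 had risen by day 6 and rose again between days 6 and 15.

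The ratio of 2 paralogs inside a library does not depend on library scaling. The log2 ratio of Actl6b to Actl6a counts (0.5 added to each) was −11.83 on average in E14 at day 0 (SD 1.56, n = 3) and −0.39, −1.43 and −1.28 in the 3 libraries at day 15. Smarca2 over Smarca4 averaged −6.88 at day 0 and was −1.66, −1.70 and −1.46 at day 15. Ss18l1 over Ss18 went from an average of −3.75 to 0.38, −0.45 and −0.46. The gain between the days was 10.79 for the actin-like pair, 5.28 for the ATPases, 3.57 for the SS18 pair, 3.93 for Dpf3 over Dpf2 and 0.68 for Dpf1 over Phf10. In each of the first 4 pairs every day 15 library was above every day 0 library, and in the last 2 of 3 were.

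**Figure D2:**
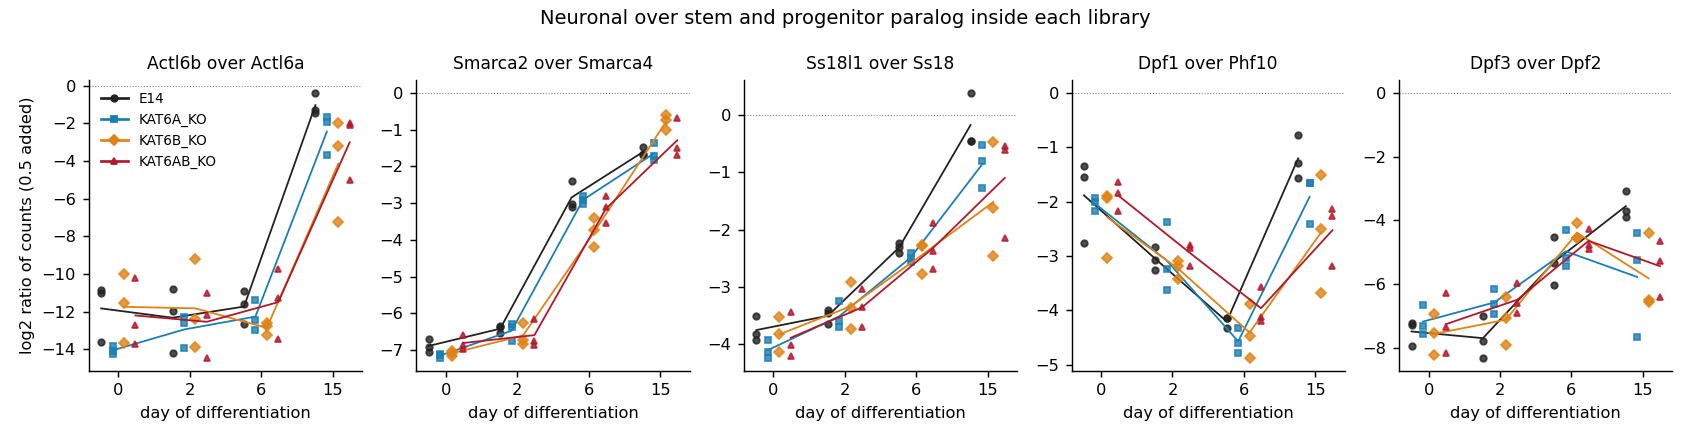
Log2 ratio of the neuronal to the stem and progenitor paralog (0.5 added to each count) in every library at each day, by line, with lines through the means of 3; the dotted line marks equal counts, uncorrected for gene length. At day 15 all 9 knockout libraries are below the 3 E14 libraries for Actl6b over Actl6a, Ss18l1 over Ss18 and Dpf3 over Dpf2.

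Within each knockout line, the members called were mostly those called in E14 and in the same direction, with Dpf1 and Smarca4 as exceptions in KAT6AB_KO. Between day 0 and day 15, 3 members rose and 4 fell in KAT6A_KO, 4 rose and 4 fell in KAT6B_KO, and 4 rose and 5 fell in KAT6AB_KO, against 68.7%, 61.9% and 67.6% of all genes in either direction. All genes that rose were 35.8%, 33.6% and 33.6%, and those that fell 32.9%, 28.2% and 34.1%. Smarca2 rose by 5.27, 6.01 and 5.05 on the log2 scale in KAT6A_KO, KAT6B_KO and KAT6AB_KO, and Actl6a fell by 2.48, 2.30 and 2.52. Ss18l1 rose by 2.10, 1.26 and 1.56 in the same order. Ss18 and Dpf2 fell in all 3 lines, and Actl6b rose in all 3. The Actl6b floor was 3 counts over a group, and group means at day 15 were set against it. KAT6A_KO had no count at day 0, and its day 15 mean was at least 307-fold higher. KAT6B_KO had none at day 6, and its day 15 mean was at least 182-fold higher. The lowest KAT6B_KO library at day 15, at 0.254 CPM, was far below that mean of 4.17 CPM.

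The knockout lines were less alike in the PHD-finger genes. Phf10 fell by 0.53 (edgeR adjusted p = 0.000379) in KAT6A_KO and by 0.49 (0.0108) in KAT6B_KO, and its value in KAT6AB_KO was −0.24 (adjusted p = 0.103). Dpf3 rose by 1.68 (edgeR adjusted p = 0.0339) in KAT6B_KO and 1.46 (0.0211) in KAT6AB_KO, and in KAT6A_KO its value was 1.20 (0.0871). These Dpf3 calls rest on single libraries: without KAT6B_KO day 15 replicate 1 the value was 0.57 (adjusted p = 0.324), without KAT6AB_KO day 15 replicate 2 it was 0.90 (0.131), and without KAT6A_KO day 15 replicate 1 it was 1.63 and called (0.00534). Dpf1 had fallen at day 15 in KAT6AB_KO (−0.80, edgeR adjusted p = 0.0137), a call that was lost without day 0 replicate 1 (−0.70, adjusted p = 0.0545). Its values in KAT6A_KO and KAT6B_KO were −0.38 (adjusted p = 0.204) and −0.56 (0.267), against 0.28 in E14. The log2 ratio of Dpf1 to Phf10 changed between the days by 0.13, −0.29 and −0.64 in KAT6A_KO, KAT6B_KO and KAT6AB_KO, against 0.68 in E14. With the counts of Dpf1 and Dpf3 set against those of Phf10 and Dpf2, it changed by 0.26, −0.20 and −0.36 against 1.12, so this exchange ratio did not rise in KAT6B_KO or KAT6AB_KO. Smarca4 fell by 0.49 (edgeR adjusted p = 0.00584) in KAT6AB_KO. Whether these courses differ between lines is a separate test, given after the comparison of lines at each day.

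**Figure D3:**
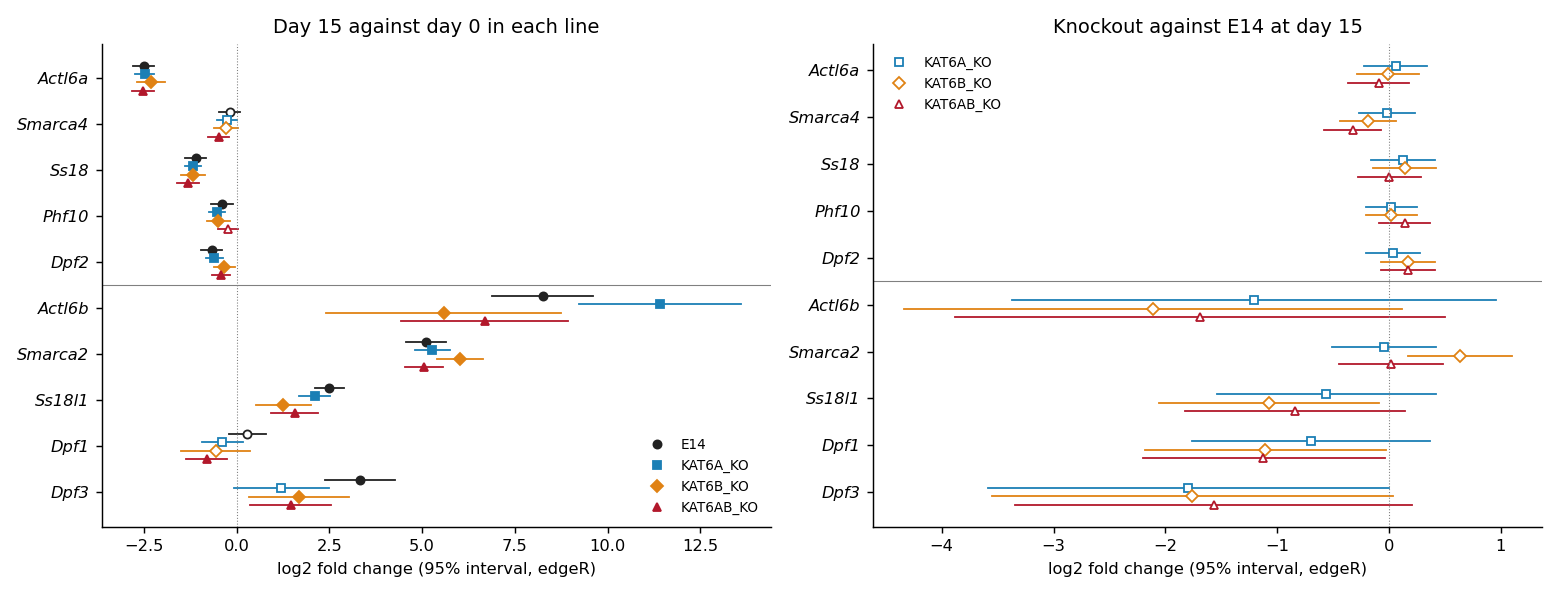
Log2 fold change of each member with its 95% interval, for day 15 against day 0 in each line (left) and for each knockout against E14 at day 15 (right); filled symbols passed edgeR's adjusted p of 0.05, open symbols did not. On the right no symbol is filled, and the intervals of the neuronal paralogs other than Smarca2 are wider than those of the stem and progenitor paralogs.

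No member passed the test in any comparison of a knockout with E14 on the same day. This was 0 of 111 tests by edgeR, of which 11 had an unadjusted p under 0.05, and 1 by DESeq2. Over all genes, those with such an unadjusted edgeR p ran from 796 of 19594 (KAT6B_KO, day 2) to 4974 of 20225 (KAT6AB_KO, day 15). The count of 11 therefore says little by itself. With all 48 libraries in one edgeR fit, in which the days share one estimate of the spread, 7 were called, all at day 15. They were Smarca2, Dpf1, Dpf3 and Ss18l1 in KAT6B_KO, and Dpf1, Dpf3 and Ss18l1 in KAT6AB_KO. The share of all genes called in that fit or by DESeq2 was not counted, so whether 7 is many cannot be told. The 3 knockouts share the E14 libraries. At days 0, 2 and 6 the counts of Actl6b did not pass the filter, so 9 members were compared there and Actl6b was not tested. In stem cells (day 0) the members' log2 differences ran from −0.26 to 0.29 and no member of any line lay clear of E14, where 11.5%, 13% and 18.1% of all genes in KAT6A_KO, KAT6B_KO and KAT6AB_KO did. The share of genes called at day 0 was 0%, 0.0106% and 2.09%.

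At days 2 and 6 the members' differences from E14 ran from −0.43 to 0.99 and from −0.89 to 0.81 on the log2 scale. No member was called, where 0.0102%, 0% and 1.12% of genes were at day 2 and 0%, 0.0292% and 0.0682% at day 6. At day 2, 7 of 27 comparisons did not overlap, where 20.1%, 9.59% and 21.9% of all genes in the 3 lines did not. Of these 7, 3 were Smarca2, which was at 4.56, 3.99 and 3.91 CPM in the E14 libraries and lower in all 9 knockout libraries, at 2.28 to 3.89 CPM. At day 6, 3 of 27 did not overlap, where 11.6%, 17.4% and 11.7% of all genes did not. Smarca2 in KAT6B_KO was then at 37.9, 17.5 and 26.7 CPM, and 2 of its 3 libraries were below all 3 E14 libraries.

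At day 15 the groups did not overlap for 3 of 10 members in KAT6A_KO, 7 in KAT6B_KO and 7 in KAT6AB_KO, where 26.5%, 29.3% and 42.2% of all genes did not. The share of genes called was 0%, 0.0742% and 3.18%. In simulated counts 14% of 2-fold changes were found for KAT6AB_KO at day 15, against 80% at day 0. A 2-fold difference at day 15 could thus be missed. The members that lay clear of E14 were Actl6b, Dpf1 and Dpf3 in all 3 lines, lower in each, Ss18l1 and Smarca4 in KAT6B_KO and KAT6AB_KO, also lower, and Dpf2 in the same 2 lines, Smarca2 in KAT6B_KO and Phf10 in KAT6AB_KO, all higher. For the 5 stem and progenitor paralogs the differences from E14 ran from −0.32 to 0.17 over 15 comparisons. Actl6a was at 31.6 to 42.2 CPM in all 12 day 15 libraries, with the lines fully interleaved. Smarca4 averaged 380.0 CPM in E14, 336.0 in KAT6B_KO and 306.9 in KAT6AB_KO, and all 6 libraries of those 2 knockouts were below all 3 of E14. Dpf2 averaged 113.5% of E14 in both KAT6B_KO and KAT6AB_KO, and Phf10 averaged 111.3% in KAT6AB_KO, with all libraries above E14.

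Among the neuronal paralogs the knockout libraries were lower for Actl6b, Dpf1, Dpf3 and Ss18l1. Actl6b was at 3.22, 9.45 and 10.9 CPM in KAT6A_KO, 8.53, 0.254 and 3.72 CPM in KAT6B_KO and 7.49, 8.25 and 1.19 CPM in KAT6AB_KO. All 9 values were below the lowest E14 library, at 13.9 CPM, and the means were 43.6%, 23.2% and 31.3% of E14. The log2 differences were −1.21 (SE 0.98, 95% interval −3.37 to 0.96), −2.11 (SE 1.01, −4.34 to 0.12) and −1.69 (SE 0.99, −3.88 to 0.50), with edgeR adjusted p of 0.623, 0.271 and 0.308. The knockout libraries spread widely among themselves, from 0.254 to 8.53 CPM inside KAT6B_KO alone.

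Dpf1 at day 15 was at 12.3, 17.3 and 17.7 CPM in KAT6A_KO, 20.0, 4.48 and 10.9 CPM in KAT6B_KO, and 15.0, 13.6 and 6.66 CPM in KAT6AB_KO. All 9 were below the 3 E14 libraries, though KAT6B_KO replicate 1 only just. The log2 differences were −0.70, −1.11 and −1.12 (SE 0.48, 0.49 and 0.49) with edgeR adjusted p of 0.58, 0.241 and 0.19. Without KAT6B_KO replicate 1, the difference in that line was −1.75 and passed the test (adjusted p = 0.0449). Dpf3 was at 0.392, 3.16 and 1.66 CPM in KAT6A_KO, 3.71, 0.877 and 0.786 CPM in KAT6B_KO, and 1.91, 3.36 and 0.89 CPM in KAT6AB_KO. Again all 9 were below E14, with means of 28.9%, 29.7% and 34.0% of it. The log2 differences were −1.80, −1.76 and −1.57 (SE 0.81, 0.81 and 0.80), with edgeR adjusted p of 0.438, 0.258 and 0.251. Dpf3 was not lower at day 6, when the line means were 3.17, 4.81 and 3.85 CPM against 2.75 ± 1.4 CPM (SD, n = 3) in E14.

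Ss18l1 was at 27.7, 38.8 and 44.8 CPM in KAT6A_KO at day 15, 40.9, 13.3 and 23.5 CPM in KAT6B_KO and 37.3, 39.0 and 15.7 CPM in KAT6AB_KO. In KAT6B_KO and KAT6AB_KO all libraries were below E14, and in KAT6A_KO 2 of 3 were. The log2 differences were −0.56, −1.07 and −0.84 (SE 0.44 in each), with edgeR adjusted p of 0.617, 0.219 and 0.264. Smarca2 stood apart from the other neuronal paralogs. It was at 148.7, 103.8 and 116.0 CPM in KAT6A_KO and 117.9, 99.7 and 167.1 CPM in KAT6AB_KO, both overlapping E14, and higher in KAT6B_KO at 230.6, 191.7 and 165.8 CPM. All 3 KAT6B_KO libraries were above E14, with a log2 difference of 0.63 (SE 0.21, 95% interval 0.17 to 1.10, edgeR adjusted p = 0.151).

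Levels of Actl6b, Dpf1 and Ss18l1 went with the neuron markers at the low end of each knockout line, though not library by library throughout. At day 15 the 10 neuron markers summed to 3102, 1739 and 2112 CPM in E14, 452.2, 1303 and 1840 CPM in KAT6A_KO, 1247, 81.4 and 534.8 CPM in KAT6B_KO, and 1133, 1072 and 183.6 CPM in KAT6AB_KO. In each knockout line the library with the lowest sum was also the lowest in Actl6b, Dpf1 and Ss18l1, and in KAT6A_KO and KAT6AB_KO it was the lowest in Dpf3. Per 1000 CPM of neuron markers, Actl6b was at 8.0, 7.96 and 7.32 CPM in E14, 7.12, 7.25 and 5.92 CPM in KAT6A_KO, 6.84, 3.12 and 6.96 CPM in KAT6B_KO and 6.61, 7.7 and 6.46 CPM in KAT6AB_KO. On this scale the Actl6b means were 7.76, 6.76, 5.64 and 6.93, a much narrower span than the CPM means, and KAT6AB_KO replicate 2 lay among the E14 libraries. On the same scale Ss18l1 was at 22.7, 25.6 and 22.7 CPM in E14, 61.1, 29.8 and 24.3 CPM in KAT6A_KO, 32.8, 163.3 and 43.9 CPM in KAT6B_KO and 32.9, 36.4 and 85.5 CPM in KAT6AB_KO. All libraries of KAT6B_KO and KAT6AB_KO were above E14, and the highest of each knockout line was the library with the fewest neuron markers. Dpf1 was at 10.3, 13.6 and 9.65 CPM in E14, 27.2, 13.3 and 9.62 CPM in KAT6A_KO, 16.1, 55.0 and 20.4 CPM in KAT6B_KO and 13.3, 12.7 and 36.3 CPM in KAT6AB_KO, above E14 throughout in KAT6B_KO and overlapping it in the other 2 lines. Dpf3 was at 2.63, 3.12 and 2.13 CPM in E14, 0.868, 2.43 and 0.902 CPM in KAT6A_KO, 2.97, 10.8 and 1.47 CPM in KAT6B_KO and 1.68, 3.14 and 4.85 CPM in KAT6AB_KO, overlapping E14 in every line. Ss18l1 and Dpf1 were also detected at day 0, when the neuron markers summed to 380.0 to 417.6 CPM in E14.

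Other cell type markers also differed between the day 15 cultures. Mesenchyme and smooth muscle markers were higher in most knockout libraries, at 1923 to 4558 CPM in E14 and 3072 to 7266, 4874 to 18320 and 7694 to 9365 CPM in KAT6A_KO, KAT6B_KO and KAT6AB_KO, with all 6 genes present in every line. The KAT6A_KO sums overlapped E14. None of the 6 genes passed the test in KAT6A_KO (lowest edgeR adjusted p 0.398) or in KAT6B_KO (0.111). The 7 neural progenitor markers were at 738.0 to 866.1 CPM in E14 and at 362.5 to 562.3, 110.2 to 322.9 and 65.3 to 283.9 CPM in the 3 knockouts. All 10 neuron markers and all 7 progenitor markers were above 0 in every line. Of 7 astrocyte and oligodendrocyte markers, 6 could be tested, with median log2 differences from E14 of −3.30, −4.29 and −2.44 in KAT6A_KO, KAT6B_KO and KAT6AB_KO, and Aqp4 in KAT6AB_KO was the one that passed (−4.74, edgeR adjusted p = 0.0319). Neuron markers had medians of −0.94, −1.70 and −1.47, and none of the 10 passed in any line. The part of these cell types in the lower paralog levels was not tested.

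**Figure D4:**
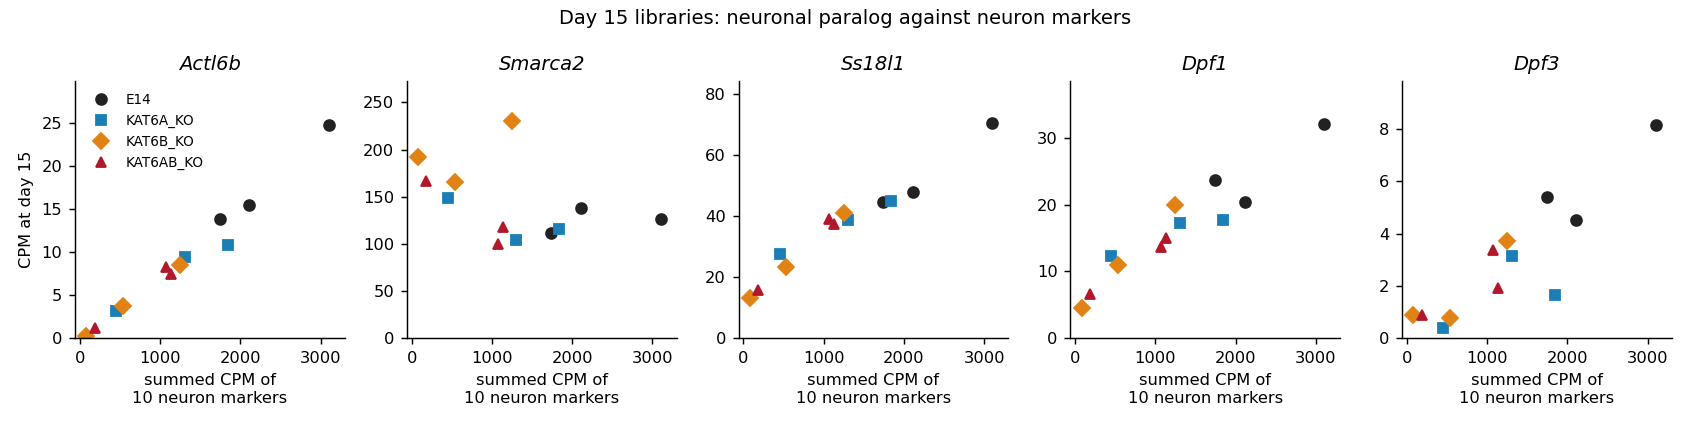
CPM of each neuronal paralog (y axes from 0) against the summed CPM of 10 neuron markers (x axis) in the 12 day 15 libraries, by line. Actl6b, Ss18l1 and Dpf1 are low where the neuron markers are low, and the Smarca2 values of the library with the lowest sum, 81.4, are above those of all 3 E14 libraries.

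The paralog ratios within libraries, taken from the same counts, were lower in the knockouts for these genes. Actl6b over Actl6a averaged −1.04 in E14 at day 15 (SD 0.56, n = 3) and −2.44, −4.14 and −3.01 in KAT6A_KO, KAT6B_KO and KAT6AB_KO, with every knockout library below every E14 library. The same held for Ss18l1 over Ss18, at −0.18 in E14 and −0.87, −1.52 and −1.10, and for Dpf3 over Dpf2, at −3.56 in E14 and −5.78, −5.82 and −5.44. Smarca2 over Smarca4 went the other way in KAT6B_KO, at −0.61, −0.74 and −1.02, above all 3 E14 libraries. Full separation was not limited to day 15. At day 0 all 3 KAT6A_KO libraries were below E14 for Actl6b over Actl6a, where Actl6b was near 0. The same held there for Smarca2 over Smarca4 and Ss18l1 over Ss18, with differences of means of −0.26 and −0.35. At day 2 Dpf3 over Dpf2 was above E14 in all KAT6A_KO and KAT6AB_KO libraries. How often ratios of other gene pairs separate was not counted.

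Whether the day 0 to 15 change itself differed from that of E14 was tested by an interaction term. No member passed in any line, 0 of 30 tests, of which 5 had an unadjusted p under 0.05. Over all genes, 2011 of 20597, 2993 of 20629 and 4317 of 20689 had such a p in KAT6A_KO, KAT6B_KO and KAT6AB_KO. The share of all genes called was 0% in KAT6A_KO, 0.0436% in KAT6B_KO and 2.51% in KAT6AB_KO. DESeq2 also called 0 members, and the fit of all 48 libraries called 1 (Ss18l1 in KAT6B_KO). How many of all genes these alternatives called was not counted. Dpf3 was at −2.13, −1.81 and −1.83 on the log2 scale in KAT6A_KO, KAT6B_KO and KAT6AB_KO, and Ss18l1 was at −0.41, −1.41 and −0.91. Actl6b had the lowest and the highest value of any member, at −2.84 in KAT6B_KO (SE 1.85) and 3.16 in KAT6A_KO (SE 2.05), and was at −1.53 in KAT6AB_KO (SE 1.70). Its day 0 counts were almost empty in every line, so these sizes depend on the prior count. The lowest adjusted p was 0.183. In simulated counts for KAT6AB_KO this term found few of the smaller changes.

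Other subunits of the complex gave the setting of these exchanges. Of 21 further BAF subunits, all of which could be tested, 7 rose, 7 fell and 7 did not pass in E14 between day 0 and day 15, with a median log2 change of −0.13 against 0.08 over all genes. These shares are close to the 36.5% and 33.2% of all genes that rose and fell, so the counts say little by themselves. Several of these were paralogs that changed in opposite directions. Smarcc2 (BAF170) rose from 40.5 ± 4.09 to 187.9 ± 30.2 CPM (SD, n = 3; log2 2.24, edgeR adjusted p = 7.32e-08), while Smarcc1 (BAF155) fell from 478.7 ± 66.3 to 243.0 ± 16.5 CPM (−0.95, 1.22e-05). Smarcd3 (BAF60C) rose from 4.55 to 28.9 CPM (log2 2.70, edgeR adjusted p = 1.82e-06), while Smarcd1 and Smarcd2 fell by 1.36 and 1.06 on the log2 scale. Arid1b rose by 1.36 and Arid1a fell by 0.88; these encode alternative DNA-binding subunits. Bcl11a and Bcl11b, zinc-finger proteins that copurify with BAF and act in cortical neurons, rose from 5.81 to 96.0 CPM and from 2.82 to 25.7 CPM. The core subunits Smarcb1 and Smarce1 had log2 changes of −0.80, which passed, and 0.07, which did not.

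**Figure D5:**
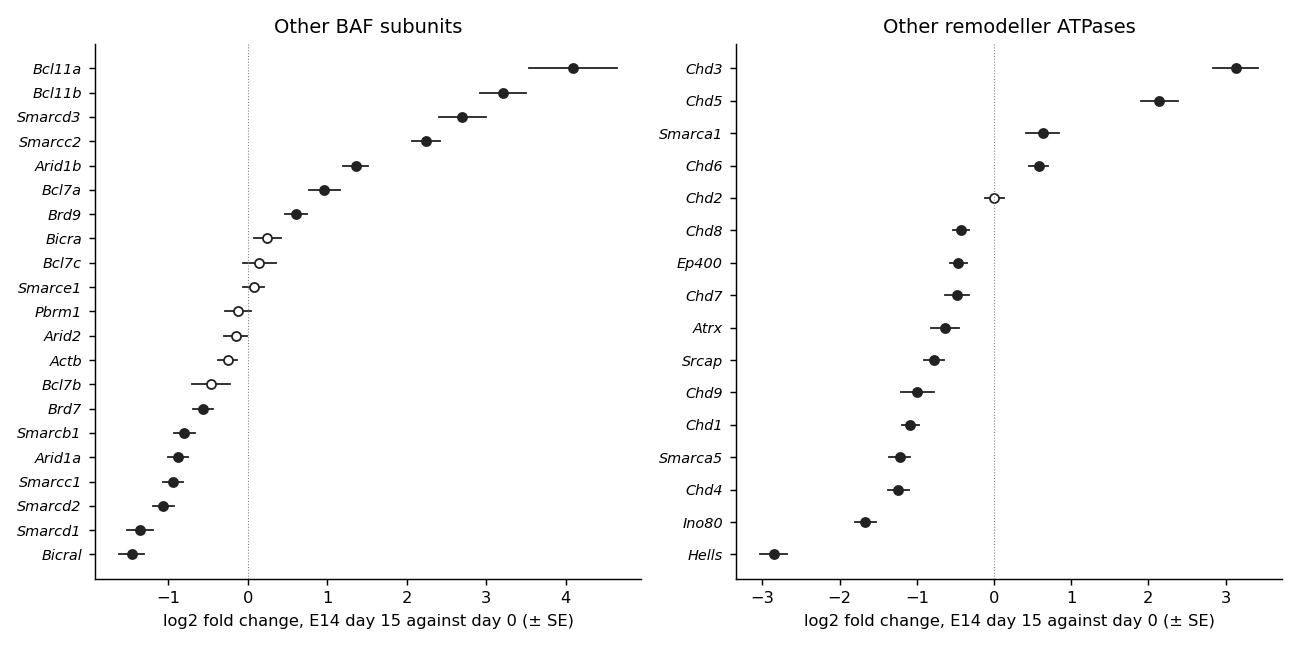
Log2 fold change between day 0 and day 15 in E14, with its SE, for 21 other BAF subunits (left) and 16 ATPases of other remodellers (right); filled symbols passed edgeR's adjusted p of 0.05. Bcl11a, Bcl11b, Smarcd3 and Smarcc2 are the highest on the left, and 11 of the 16 ATPases on the right fell.

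Of 16 ATPases of other remodellers, 4 rose and 11 fell in E14, where 36.5% and 33.2% of all genes did, with a median of −0.56 against 0.08 over all genes. Chd3 and Chd5, which encode NuRD-type ATPases, rose by 3.13 and 2.14 on the log2 scale, while Chd4 fell by 1.24, so this family too had members that moved in opposite directions. Hells and Ino80 fell by 2.85 and 1.67.

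Genes of the REST and microRNA circuit changed too, and not all at the stage at which Actl6b rose. Of 12, 8 rose and 3 fell in E14 between day 0 and day 15, where 36.5% and 33.2% of all genes did, with a median of 1.09. Rest fell from 751.3 ± 60.5 to 118.9 ± 21.9 CPM (SD, n = 3; log2 −2.63, edgeR adjusted p = 8.07e-09) and had fallen by 2.10 by day 6. Of the 3 Rcor genes in the list, which encode REST corepressors, Rcor2 fell by 2.88 and Rcor3 and Rcor1 rose by 2.46 and 0.79 (Rcor1 was named after its values were seen). Mir124-2hg, a host transcript of miR-124, rose from 0.181 CPM at day 0 to 34.8 CPM at day 6, when Actl6b was still at background. It was at 59.9 CPM at day 15. Mir124a-1hg, another host transcript of miR-124 (named after its values were seen), first went the other way. Its log2 change from day 0 was −3.17 at day 6 (edgeR adjusted p = 1.84e-05). Between days 6 and 15 it rose by 4.67 (edgeR adjusted p = 4.96e-07). Mir9-3hg, a host transcript of miR-9, fell from 2.20 to 0.983 CPM by day 6 (log2 −1.13, edgeR adjusted p = 0.0058) and was at 22.7 CPM at day 15. These are host transcripts, and the mature microRNAs were not measured.

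In KAT6AB_KO against E14 at day 15, 1 of the 21 other subunits was higher and 2 were lower, where 3.18% of all genes were called. Smarcd2 was higher by 0.71 (edgeR adjusted p = 0.0377), Smarcd1 was lower at −0.60 (0.0468), and Bcl11b was lower at −3.31 (0.0366), with 2.61 ± 2.04 CPM against 25.7 ± 8.37 in E14 (SD, n = 3). Mir9-3hg was at 0.686 CPM against 22.7 CPM in E14, a log2 difference of −5.04 (edgeR adjusted p = 0.0451). None of these 4 differences was called in any of the 6 fits that left out 1 library. At day 2 in the same line Bcl11a and Bcl11b were lower, at −1.57 and −1.54 (edgeR adjusted p = 0.0235 and 0.0332), calls that were lost in 5 of 6 such fits. Over the other 2 lines at day 15 no further BAF subunit passed.

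The genes most like a member across all 48 libraries were listed by Pearson's r of log2 CPM over 12326 genes, as a description with no test, since libraries of one group share their condition. Those most like Actl6b were Psd (r = 0.9789), Apc2, L1cam, Gabbr2 and Map2 (0.9622), genes of synapses and of the neuronal cytoskeleton and cell surface. Those most like Dpf1 were Ywhag (0.9458), Ina, Stmn2, Tubb3 and Bdh1 (0.9114), of which Stmn2 and Tubb3 are also in the neuron marker list. The nearest to Dpf3 was Usp29 (0.8867), followed by Sdk2, Zfp286, Efnb3 and Bbs1. Actl6a ran closest to Ran (0.9952), Gpn1, Ncl, Shmt1 and Cct7 (0.9906), genes of nuclear transport, nucleoli, one-carbon metabolism and protein folding. Phf10 had looser company, Rmnd5a at 0.8431 being the nearest.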

How the data were processed

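RNA-seq of 48 libraries (4 lines, days 0, 2, 6 and 15, 3 replicates) was analysed. Per the labels' protocols, ribosomal RNA was removed, a directional kit was used and 150 bp were sequenced from both ends. The deposited table holds raw counts per gene, as the authors left them: whole numbers without normalization. HISAT2 and GRCm39 are named, without a version, per the submitters' processing notes; the program that counted reads and its handling of strand were not given, so reads of overlapping or antisense genes cannot be told apart. Of 36983 entries, 48 that repeat an identifier were left out, which kept 36935 genes.

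Tests used edgeR 4.0.16 (R 4.3.3): TMM scaling, filterByExpr by group (minimum count 10, minimum total 15), robust quasi-likelihood fits and Benjamini-Hochberg adjustment over all genes tested, with calls at an adjusted p under 0.05. Day courses were fitted on the 12 libraries of a line, lines on the 12 libraries of a day, and interactions on days 0 and 15 of E14 and 1 knockout. The biological coefficient of variation was 23.3% in the E14 course and 19.3%, 21%, 24.6% and 37.8% within days 0, 2, 6 and 15. The fits were tested on simulated counts with 200 changed genes. Of 2-fold changes, 58% were found in E14 between days 0 and 15. For KAT6AB_KO against E14 80% were found at day 0, 14% at day 15 and 8% by the interaction term. False calls numbered 3 to 7. P-values measure the spread between these replicates. Same-numbered libraries deviated together, with all 3 correlations over 0.1, between some E14 days (0.157 to 0.303 for days 0 and 6) and not between others (−0.102 to 0.102 for days 0 and 15). Ratios add 0.5 counts. Alternatives were RLE factors, 2 other filters, DESeq2 1.42.0, other sets of libraries, a replicate block, 87 fits without 1 library or replicate, 1 added count in ratios, and a day 15 fit without KAT6B_KO, chosen after seeing the data.

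All 10 members and all further BAF subunits could be named; from other lists, up to 4 called genes in each direction with the largest E14 day 15 change, plus the 5 genes most like Actl6b, Dpf1, Dpf3, Actl6a and Phf10 among those with a mean of at least 5 CPM. Members and lists were chosen with earlier results of these data known. Sequences are from RefSeq (GRCm38.p6) and, for 3′ UTRs (the longest per gene), GENCODE M21 on GRCm38; table positions on GRCm39 were not used. RefSeq promoters of 9 members were searched. No sequence of miR-124 is shown.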

Additional observations from a re-analysis of the deposited data

Results flagged for a closer look

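2 genes of the lists beside the members differed between lines in their day 0 to 15 change, by the interaction term of edgeR over all genes. Bcl11a, a BAF-associated zinc-finger gene, rose less in KAT6AB_KO than in E14 (difference of log2 changes −2.29, SE 0.40, edgeR adjusted p = 0.0197), going from 3.95 to 13.4 CPM against 5.81 to 96.0 CPM. Leaving out 1 replicate number of all groups gave −2.57 to −2.12, and the call was lost in 2 of 3 such fits (adjusted p up to 0.262). Mir9-3hg differed by −4.58 (SE 0.71, edgeR adjusted p = 0.0132): its mean went from 1.62 to 0.686 CPM in KAT6AB_KO against 2.20 to 22.7 CPM in E14. The same fits gave −5.66 to −3.82, and the call was lost in 2 of 3 (adjusted p up to 0.395). Neural progenitor markers also differed between these cultures, at 65.3 to 283.9 CPM for 7 genes in KAT6AB_KO at day 15 and 738.0 to 866.1 CPM in E14, and their part in either difference was not tested.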

How the results depend on the processing

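Member calls in the E14 course (15 of 30) were 14 to 16 under every alternative and without single libraries, and those in the knockout courses (24 of 30) were 22 to 26. Against E14 at each day, 0 of 111 became 7 with all 48 libraries in one fit, in which all days share one estimate of the spread (Smarca2, Dpf1, Dpf3 and Ss18l1 in KAT6B_KO and Dpf1, Dpf3 and Ss18l1 in KAT6AB_KO, all at day 15), 1 with DESeq2 (Smarca4, KAT6AB_KO day 15, −0.37, adjusted p = 0.0261), and 0 to 1 without single libraries; the cause of the last 2 was not tested. The interaction count of 0 became 1 with all 48 libraries (Ss18l1, KAT6B_KO, −1.31, adjusted p = 0.0456). The share of all genes called under the alternatives was not counted. Signs turned without single libraries or replicates, as ranges, in Phf10 and Ss18 of E14 at day 2 (−0.022 to 0.30 and −0.056 to 0.14), Phf10 at day 6 (−0.26 to 0.064), Smarca2 at day 15 in KAT6A_KO (−0.19 to 0.065) and KAT6AB_KO (−0.22 to 0.17; −0.026 with RLE, −0.025 with DESeq2), and in interactions for Ss18l1 in KAT6A_KO (−0.77 to 0.072), Smarca2 in KAT6AB_KO (−0.19 to 0.16) and Actl6b in KAT6AB_KO (−2.35 to 0.48). A replicate block gave 16, 24, 0 and 0 calls in the E14 course, the knockout courses, the lines against E14 and the interactions; the labels do not say that a number marks one experiment, and all 3 correlations of same-numbered deviations were over 0.1 in 7 of 24 pairs of days within a line and in 6 of 24 pairs of lines within a day (37 and 40 of 72 single correlations). The block added Smarca4 in E14 between days 0 and 6 (−0.31, adjusted p = 0.0432) and lost the day 15 calls of Smarcd1, Smarcd2, Bcl11b and Mir9-3hg in KAT6AB_KO. Over single genes, other settings left 1182 values on the same side of the threshold, with 16 newly called, 26 lost and 2 reversed; fits without 1 library or replicate left 915, with 5 gained, 75 lost and 10 reversed. The day 15 fit without KAT6B_KO called 0 members.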
